A study of Mus musculus with 3 samples.

Results

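Transcripts of 8 genes best known from B cells, plasma cells and antigen-presenting cells were followed through single-cell RNA libraries of splenic T cells: Jchain, Cd79a, Cd79b, Ms4a1, Cd22, Cd74, H2-Aa and H2-Ab1, of 18029 genes in the count table. The genes were taken as a fixed list, and they had been picked with their UMIs (unique molecular identifiers, 1 per captured RNA molecule), positive cells, clusters, pools and doses already known, so those values are given as a description with no test. Irradiated B6D2F1 mice had received B6 bone marrow, B6 T cells and a small number of TEa TCR transgenic T cells, a transplant that gives graft-versus-host disease, and were treated from day 0 to day 6 with saline, with cyclosporine A (CSA, a calcineurin inhibitor) at 5 mg/kg or with CSA at 50 mg/kg. On day 7 the spleens of 6 mice per group were combined into 3 pools of 2 mice, the pools were marked with hashtag antibodies, and viable CD4+ and CD8+ T cells were purified by sorting on CD90.2, CD4 and CD8 and then mixed in equal parts. Each treatment group went into 1 droplet capture, so capture and treatment cannot be told apart, and n = 3 pools per group measures the spread between pools of 1 capture. All 3 groups carried the same transplant.

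J chain, encoded by Jchain, is a small protein that joins IgM and IgA monomers into polymers and is made in quantity by plasma cells. CD79A and CD79B form the signalling part of the B cell receptor, MS4A1 (CD20) is a surface protein of B cells, and CD22 is an inhibitory sialic acid-binding receptor of B cells. H2-Aa and H2-Ab1 encode the alpha and beta chains of the mouse MHC class II molecule I-A, and CD74 is the invariant chain that escorts class II molecules through the cell. Mouse T cells, unlike activated human T cells, are generally regarded as poor producers of class II molecules.

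On GRCm38, the build named in the submitters' processing notes as mm10, Jchain lies at chr5:88519809-88527897, Cd79a at chr7:24897497-24901858, Cd22 at chr7:30865404-30880342, Cd79b at chr11:106311341-106314562, H2-Ab1 at chr17:34263227-34269418, H2-Aa at chr17:34282744-34287823 and Ms4a1 at chr19:11249679-11266149. The 100 bases before the RefSeq start (GRCm38.p6) are shown for Jchain, the gene with the widest range of levels, and for H2-Aa and H2-Eb1, neighbouring class II genes whose RNA was lower in both lineages at 50 mg/kg. Each line reads 5′ to 3′ on the strand of the gene, from chr5:88527898-88527997 (minus strand), chr17:34287824-34287923 (minus strand) and chr17:34305767-34305866 (plus strand). Capitals mark the Y box, searched as CTGATTGG on both strands.
Jchain: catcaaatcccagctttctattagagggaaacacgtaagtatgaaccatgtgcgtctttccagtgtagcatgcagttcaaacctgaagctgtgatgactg
H2-Aa: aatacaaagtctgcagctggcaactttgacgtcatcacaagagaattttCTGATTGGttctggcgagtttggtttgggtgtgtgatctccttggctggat
H2-Eb1: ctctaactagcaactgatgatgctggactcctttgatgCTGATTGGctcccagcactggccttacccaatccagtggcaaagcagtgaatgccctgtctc
The Y box, a known class II promoter element, began 51 bases before the start of H2-Aa and 62 bases before that of H2-Eb1, and these letters were found in 2.51% of 32851 windows of the same length (826 windows). The octamer ATTTGCAT, known from immunoglobulin promoters, was not among the letters of these 3 windows and was found in 0.645% of all windows.

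The counts covered 21204 cells. Levels are given as CPM, the UMIs of a gene scaled to a common total of UMIs in each pool and lineage, and so are shares of all RNA counted. The 280 TEa cells were left out, which gave 10091 CD4 cells and 10833 CD8 cells with 692 to 1615 cells and 3994968 to 11454636 UMIs per pool and lineage. Depth rose with dose, from a median of 3097 UMIs per CD4 cell and 4108 per CD8 cell after saline to 4396 and 6121.5 at 5 mg/kg and 5979.5 and 7183 at 50 mg/kg, so shares of cells with a UMI are also given after thinning each cell to 2000 UMIs. T cell RNA was present in every pool, where 12 T cell genes together made up 6201 to 10298 CPM, and a UMI of Cd8b1, which CD4 T cells should lack, was found in 40.7% of saline CD4 cells. The 31 genes of the B cell marker list together made up 245 to 524 CPM per pool, and Ighm, Igkc and Tnfrsf13b, with 26759, 4290 and 3478 UMIs in all cells, were the most abundant of them. Between 58 and 85 cell barcodes were shared by each pair of captures. Erythroid genes were higher at 50 mg/kg, with 7.31 to 23.1 CPM in the saline pools and 27.7 to 53.2 at 50 mg/kg. At 5 mg/kg they stood at 7.07 to 9.92 in CD4 and 8.32 to 17.4 in CD8 pools. Their part in the results was not tested.

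Scaling by TMM (edgeR's trimmed mean, which centres the bulk of genes) gave another reference than plain CPM, because under plain library-size scaling the median of all tested genes was shifted by -0.37 and -0.45 (log2) in CD4 cells and by -0.43 and -0.53 in CD8 cells at 5 and 50 mg/kg. On the TMM scale, 3 of the 8 members in CD4 cells lay wholly above the saline pools at 50 mg/kg and 4 wholly below, beside 25.2% and 27.6% of all genes with a UMI. In CD8 cells at 50 mg/kg, 4 lay above and 2 below, beside 27.4% and 27.6% of all genes. At 5 mg/kg none lay above and 1 below in CD4 cells (20.0% and 21.5% of all genes), and 1 above and 1 below in CD8 cells (22.8% and 24.0%). In plain CPM, 2 members lay above and 4 below in CD4 cells and 1 above and 4 below in CD8 cells at 50 mg/kg, and none above and 1 below in each lineage at 5 mg/kg. The members were picked on these values, so nothing is read from the shares.

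**Figure D1:**
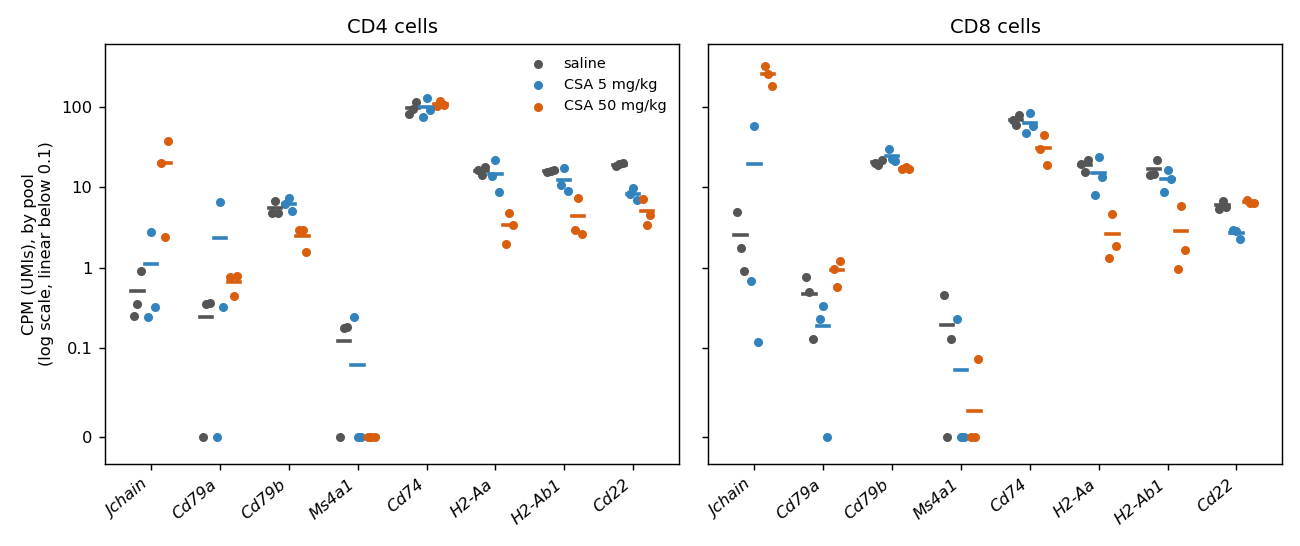
CPM of each of the 8 genes in each of 9 pools, CD4 cells at left and CD8 cells at right, on a log axis that is linear below 0.1. Points are pools, bars are group means and colours are treatment groups, and the 3 CD8 pools at 50 mg/kg hold 182 to 316 CPM of Jchain, above every other pool.

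Jchain had the widest range of the 8 genes. In CD8 cells it had 32, 14 and 7 UMIs in the 3 saline pools, 3, 346 and 1 UMIs at 5 mg/kg, and 2642, 2208 and 2085 UMIs at 50 mg/kg. Every 50 mg/kg pool therefore held more Jchain RNA than any other pool of either lineage, while the 5 mg/kg pools lay on both sides of the saline pools. The mean level in CD8 cells was 2.51 ± 2.08 CPM (SD, n = 3) in the saline group, 19.6 ± 33.3 CPM in the 5 mg/kg group and 251 ± 67.2 CPM in the 50 mg/kg group, the last 100.2 times the saline mean in CPM and 144 times it on the TMM scale. In CD4 cells the UMIs were 1, 2 and 5 after saline, 1, 13 and 2 at 5 mg/kg, and 132, 16 and 284 at 50 mg/kg. In the order of the 6 group means, CD8 cells at 50 mg/kg stood clear of the next group, CD4 cells at 50 mg/kg with 20.0 ± 17.5 CPM, and each of the other neighbours overlapped.

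The RNA sat in few cells. In CD8 cells at 50 mg/kg, 254 of 3532 cells (7.19%) held a Jchain UMI, by pool 81, 83 and 90 cells, although the same UMIs scattered over cells in proportion to depth would have reached 2860 cells. The ratio of observed to expected positive cells was 0.0888, with pools between 0.0845 and 0.0921, where an even spread gives 1. Genes of few UMIs per cell stay near 1 even when uneven, so only low ratios are read. After thinning to 2000 UMIs the positive share was 5.13% at 50 mg/kg, 0.119% at 5 mg/kg and 0.144% after saline. Cells with 5 or more UMIs, called Jchain-high here, numbered 152 and held 97.6% of the UMIs, up to 219 in 1 cell.

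**Figure D2:**
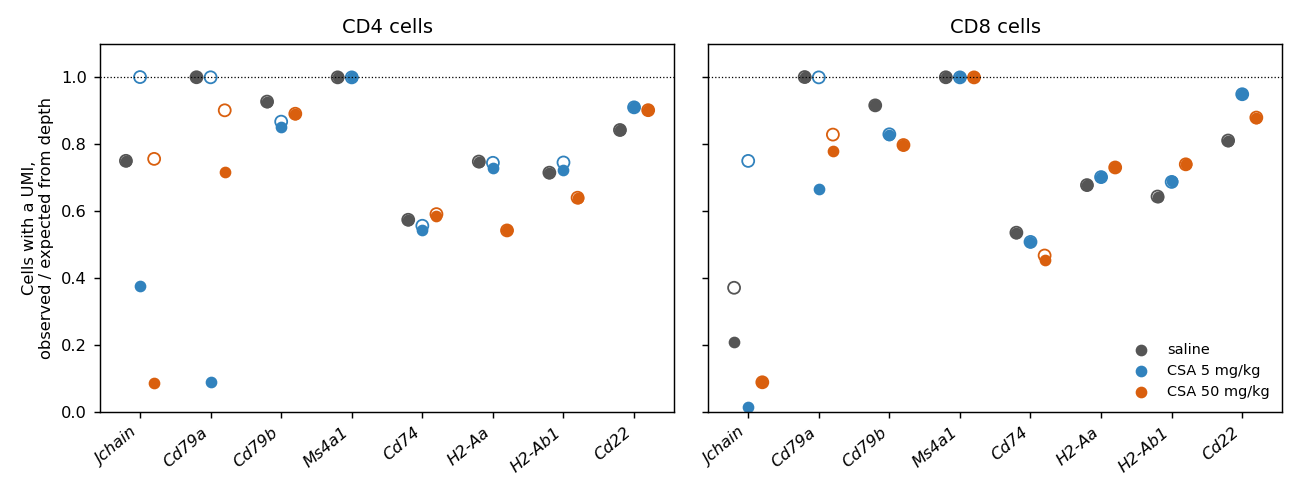
Number of cells with a UMI divided by the number expected if the UMIs fell on cells in proportion to depth, for each gene and treatment group, CD4 at left and CD8 at right; filled points are all cells and open circles leave out 9 cells with abundant immunoglobulin V RNA. An even spread gives 1 (dotted line), but a gene of few UMIs per cell stays near 1 even when uneven. Jchain in all CD8 cells stands at 0.209, 0.0155 and 0.0888 after saline, 5 mg/kg and 50 mg/kg. Cd79b and Cd22, with few UMIs per cell, lie between 0.799 and 0.950 in both lineages, which does not show an even spread.

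A second, far smaller set of cells carried immunoglobulin itself. In 9 cells the 140 immunoglobulin V segments in the table summed to 100 or more UMIs, with 405 to 5091 V UMIs each, and the next highest cell had 82. These 9 cells held 94.4% of all V segment UMIs, 188 of 200 UMIs of Mzb1, a plasma cell chaperone, 42 of 91 UMIs of Cd79a and 1123 of 7794 UMIs of Jchain. All 9 were Jchain-high, 3 lay in CD8 cells at 50 mg/kg, 2 in CD8 cells at 5 mg/kg, 1 in CD8 cells after saline, 1 in CD4 cells at 5 mg/kg and 2 in CD4 cells at 50 mg/kg. A TCR clonotype was recorded for 6 of the 9, and the strongest second hashtag was at most 0.0676 of the first. The cell with the most V UMIs, a CD4 cell at 50 mg/kg, held 5091 V UMIs, 268 Jchain UMIs and 8 Cd3e UMIs among 17542 UMIs in all.

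Without these 9 cells the high Jchain level remained in CD8 cells at 50 mg/kg, and every other group stood at 2.11 CPM or less. The UMIs were then 27, 4 and 6583 in CD8 cells after saline, 5 and 50 mg/kg, and 8, 5 and 44 in CD4 cells. CD8 cells at 50 mg/kg still held 238 ± 52.2 CPM (SD, n = 3), 200 times the saline mean, in 251 cells. The 5 mg/kg mean in CD8 cells was 0.267 in place of 19.6 CPM, and the 50 mg/kg mean in CD4 cells was 2.11 in place of 20.0 CPM, 4.14 times the saline mean of 0.508.

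The 251 positive CD8 cells that remained at 50 mg/kg ranged widely. Of these, 149 were Jchain-high and held 6419 of 6583 UMIs, 97.5%. Their median was 24 UMIs with quartiles of 12 and 58, and 43 cells held 50 or more. At the boundary, 7 cells held 4 UMIs and 10 cells held 5. The Jchain-high cells were shared evenly by the pools, with 51, 50 and 48 cells, 4.57%, 4.45% and 3.72% of the CD8 cells of each pool. After saline 1 CD8 cell of this kind was found, with 12 UMIs, and at 5 mg/kg none in 2660 cells.

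**Figure D3:**
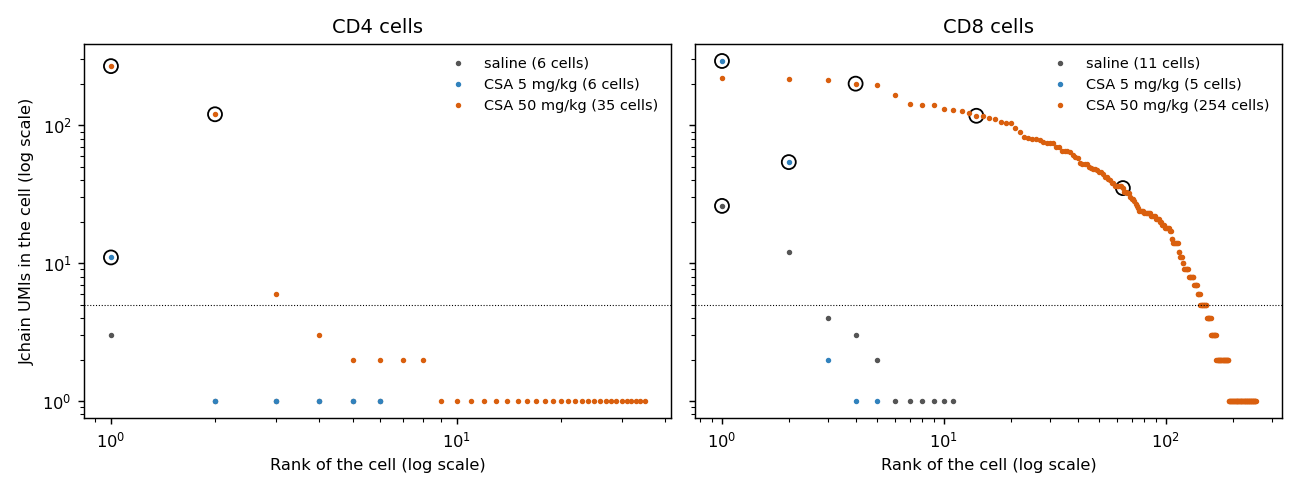
Jchain UMIs per cell against the rank of the cell, both axes on a log scale, for CD4 cells at left and CD8 cells at right; each point is a positive cell, colours are treatment groups, black rings mark the 9 immunoglobulin V cells and the dotted line is at 5 UMIs. CD8 cells at 50 mg/kg run from 219 UMIs down through 254 positive cells, while no other group has more than 35 positive cells. Ringed cells of other groups reach 292 UMIs.

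In CD4 cells at 50 mg/kg, outside cells of 5 or more UMIs, 38 Jchain UMIs lay in 32 cells. That level was 0.748% of the CD8 level in the same capture. Cd8b1, the beta chain of CD8, which CD4 T cells should lack, stood in those CD4 cells at 0.864% of its CD8 level. After saline and at 5 mg/kg the same share was 22.3% and 1.79% for Jchain, from 8 and 5 CD4 UMIs, and 11.3% and 6.35% for Cd8b1, so the 2 genes were not alike there. Cells of 1 to 4 Jchain UMIs made up 1.05% of the CD4 cells at 50 mg/kg outside the high cells, at a median depth of 5979.5 UMIs, and numbered 102 among the CD8 cells, at a median depth of 7183. Whether the CD4 UMIs were free RNA was not tested.

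The Jchain-high CD8 cells had the RNA and antibody marks of CD8 T cells. All cells had been sorted, and the CD8 cells held 0 Cd4 UMIs and the CD4 cells 0 Cd8a UMIs. CD8 marks therefore follow at least in part from how cells were assigned to a lineage. Cd3e, a chain of the T cell receptor complex, was at 1230 CPM in the 149 cells and at 1121 in the 3278 CD8 cells of the same capture with no Jchain UMI, and Cd8b1 was at 2653 and 2703. Median CD8 antibody counts were 155 and 118. A TCR clonotype was recorded for 89.9% and 89.7%, and the next strongest hashtag reached 0.5 of the strongest in 7.38% and 6.77%. It reached 0.25 of the strongest in 14.1% and 9.88%, and this difference was not tested. The median depth was 8833 UMIs against 7088, and its part in the comparison was not tested. Mzb1 had 0 UMIs in the 149 cells, which allows a share of up to 2.01% of cells with a UMI and sets no limit on cells that express the gene, as for each count of 0 given here, and Sdc1 (CD138, a plasma cell surface protein) had 1.

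Other genes of the B lineage were unevenly present in the same cells. Iglc3, a lambda light chain constant region, was at 165 CPM in Jchain-high cells and 1.22 in Jchain-negative cells, with a UMI in 38 of 149 and 9 of 3278 cells. Igkc, the kappa constant region, was at 193 and 17.6, Ighm, the mu heavy chain, at 527 and 309, and Eaf2, an elongation factor-associated gene, at 82.0 and 4.05. None of these cells held 100 or more V segment UMIs, by the way they were chosen. Tnfrsf17 (BCMA, a plasma cell receptor) had 12 UMIs in 8 Jchain-high cells and Cd79a 8 UMIs in 6.

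Genes not on the B cell and plasma cell lists also differed, and absence from the lists does not place a gene outside the B lineage. The chemokine receptor Ccr10 was at 137 CPM in Jchain-high cells and 17.2 in Jchain-negative cells. Il18 was at 84.9 and 10.9, Mef2c, a transcription factor, at 156 and 32.5, and St6gal1, a sialyltransferase, at 89.8 and 15.9. Cd163l1 was at 264 and 48.5 and Ndrg1 at 145 and 29.9. In the other direction, Ccr2, an inflammatory chemokine receptor, was at 43.8 and 188, Cd160 at 24.8 and 140, Id2, a regulator of effector differentiation, at 141 and 545, and Ctla2a at 60.1 and 242. The direction was the same in each of the 3 pools and within CD8 cluster 2 alone for all of these genes. They were named after their values were seen, as some of the largest differences with 1 direction in all pools, and carry no test.

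Jchain-high cells were spread over many T cell clones. The 134 cells with a clonotype held 126 distinct clonotypes, with at most 2 cells of any 1 clonotype. Another cell of the same clonotype and pool was found for 27 of these clonotypes, in 39 pairings. In 16 pairings (41.0%) the other cell was also Jchain-high, which are 8 clonotypes with 2 such cells counted from both sides. By pool this was 8 of 17, 4 of 6 and 4 of 16 pairings. Among all CD8 cells with a clonotype in this group 4.23% were Jchain-high, and the clusters in which the paired cells lay gave a mean share of 7.60%. In 17 pairings both cells were in 1 cluster. Cells of 1 clone are not independent, and these shares carry no test.

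CD8 cluster numbers are those of the authors' cell table and differ from the paper's. The Tcf7-led cluster is 4 here, where the paper describes its C5 as high for Tcf7. Among these CD8 clusters at 50 mg/kg, Jchain was highest in cluster 2, led by Jchain itself and the mitotic genes Cenpa, Ccnb2 and Cdc20, with 837 ± 317 CPM (SD, n = 3) and 110 of 709 cells positive. Saline cells of cluster 2 held 17 UMIs in 662 cells. Cluster 5, led by C1q genes, stood at 215 ± 181, cluster 7, led by Xcl1 and Ccl1, at 154 ± 252, cluster 1, led by S phase genes, at 130 ± 66.3 and cluster 9, led by Ifitm1 and Gpr15, at 95.1 ± 21.0. Cluster 4, led by Tcf7, held 1 UMI in 76 cells and cluster 6, led by Dapl1 and Ccr7, 2 UMIs in 161 cells. Jchain was one of the genes that formed these clusters, so the order is a description. Cluster 3 had 20 cells at this dose, too few for a value by pool.

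**Figure D4:**
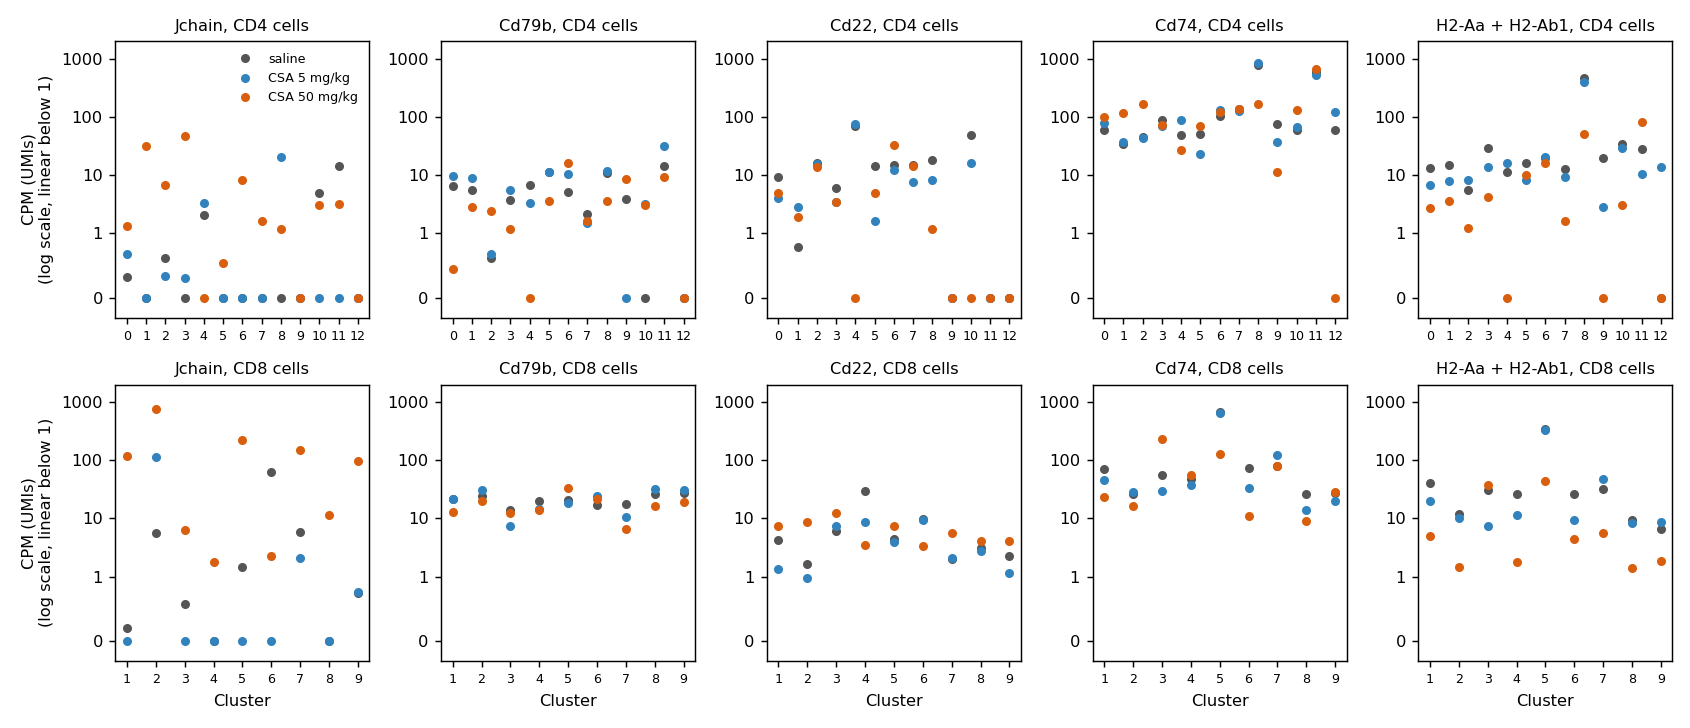
CPM by cluster for Jchain, Cd79b, Cd22, Cd74 and the sum of H2-Aa and H2-Ab1, CD4 clusters in the upper row and CD8 clusters in the lower row, on a log axis that is linear below 1. Each point is 1 treatment group with its pools added together, which puts Jchain at 768 in CD8 cluster 2 at 50 mg/kg and Cd22 at 70.5 and 76.1 in CD4 cluster 4 in the saline and 5 mg/kg groups.

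Cd79a and Ms4a1 were close to the limit of detection. Cd79a had 91 UMIs in 50 cells over the whole study, and outside the 9 immunoglobulin V cells no cell had more than 3. In CD8 cells the UMIs were 5, 4 and 1 after saline, 1, 2 and 0 at 5 mg/kg and 8, 5 and 14 at 50 mg/kg. In CD4 cells they were 0, 2 and 2, then 0, 31 and 2, then 5, 3 and 6. The 31 UMIs of the second CD4 pool at 5 mg/kg lay in 1 cell, an immunoglobulin V cell of cluster 8. Without the 9 cells, Cd79a at 50 mg/kg was at 0.760 ± 0.404 CPM in CD8 cells and 0.491 ± 0.254 in CD4 cells, beside 0.413 and 0.241 after saline. Ms4a1 had 9 UMIs in 9 cells, 6 of them after saline, and 0 in 3064 CD4 cells at 50 mg/kg, which allows a share of up to 0.0979% of cells with a UMI. No order of groups can be drawn for Ms4a1 at this depth.

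Cd79b was higher in CD8 than in CD4 cells, and no small set of cells carried it. In CD8 cells it stood at 20.0, 19.0 and 21.6 CPM in the saline pools, 30.1, 22.1 and 21.3 at 5 mg/kg and 16.8, 17.5 and 16.7 at 50 mg/kg. In CD4 cells it stood at 4.76, 6.77 and 4.77, then 6.10, 7.21 and 5.04, then 2.90, 2.96 and 1.58. The CD8 level was the higher in 9 of 9 pools, with median ratios of 4.21, 4.22 and 5.92 after saline, 5 and 50 mg/kg. The CD4 level was 27.2%, 25.5% and 14.4% of the CD8 level, where Cd8b1 stood at 11.3%, 6.35% and 0.864%.

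Cd79b UMIs were found in many cells. At so few UMIs per cell the ratio to the expected number stays near 1 even for uneven RNA, so no even spread is read from it. In CD8 cells 389, 331 and 356 cells were positive, 0.917, 0.828 and 0.799 of the number expected from depth, and the highest cell held 6 UMIs. After thinning, 3.91%, 4.33% and 3.24% of CD8 cells were positive against 1.15%, 1.18% and 0.487% of CD4 cells. The direction between doses turned with the scaling: at 50 mg/kg the CD8 pools lay below saline in CPM, at 0.839 of the saline mean, and above it on the TMM scale, at 1.21. In CD4 cells the 50 mg/kg pools lay below saline on both scales, at 0.457 and 0.614 of the saline mean. Among CD8 clusters at 50 mg/kg Cd79b was highest in cluster 5, at 34.3 ± 5.64 CPM, beside 19.1 ± 10.3 there after saline.

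Cd22 had the reverse bias between lineages after saline. In CD4 cells it stood at 18.3, 19.2 and 19.6 CPM after saline, 8.29, 9.76 and 6.83 at 5 mg/kg and 7.03, 3.41 and 4.48 at 50 mg/kg. Every CSA pool was below every saline pool, and on the TMM scale the means were 0.551 and 0.351 of saline. In CD8 cells it stood at 5.31, 6.77 and 5.70, then 2.96, 2.85 and 2.26, then 6.82, 6.35 and 6.29. The 5 mg/kg pools were the lowest, while the 50 mg/kg pools overlapped saline in CPM and lay above it on the TMM scale, at 1.58 times the saline mean. Cd22 was positive in 0.812 to 0.950 of the cells expected from depth in every group of both lineages. At so few UMIs per cell this does not show an even spread.

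Cd22 in CD4 cells had its highest saline mean in cluster 4. This cluster, led by Cxcr5, the follicular homing receptor, held 70.7 ± 3.58 CPM after saline (SD, n = 3) and 79.1 ± 28.9 at 5 mg/kg, and 135 of 288 saline Cd22 UMIs (46.9%) in 18.1% of the cells. The cluster had 733 cells in the saline group, 189 in the 5 mg/kg group and 45 in the 50 mg/kg group, where it held 0 Cd22 UMIs, which allows a share of up to 6.67% of cells with a UMI. CD4 cluster 10 stood at 59.8 ± 42.6 CPM after saline, from 10 UMIs in 69 cells, and its pools, from 24.7 to 107, overlapped those of cluster 4. CD4 cluster 2, led by Sostdc1 and Id3, was at 15.7, 16.1 and 14.5 CPM in the 3 groups, and its pools overlapped. No Cd22 UMI was found in the 309 cells of CD4 cluster 9 or the 104 cells of the Foxp3-led cluster 11, which allows shares of up to 0.971% and 2.88% of cells with a UMI. In CD8 cells cluster 4, led by Tcf7, was highest after saline at 29.6 ± 6.70 and stood at 9.12 ± 2.54 and 3.26 ± 3.25 at 5 and 50 mg/kg. CD8 clusters 1 and 2, led by S phase and mitotic genes, had higher means at 50 mg/kg than after saline, from 4.08 ± 3.41 to 7.55 ± 2.26 and from 1.73 ± 1.67 to 8.50 ± 1.39, and the Mki67-led cluster 3 had too few cells at 50 mg/kg for a value by pool.

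Cells with 2 or more UMIs over Cd79a, Cd79b, Ms4a1 and Cd22 were compared with the other cells of the same pool in readouts other than RNA. A next strongest hashtag of 0.5 or more of the strongest, as a droplet with cells of 2 pools would show, was more frequent by 1.31 ± 3.63 percentage points (SD, n = 9 pools), higher in 4 of 9 pools, with p = 0.422 in an exact two-sided sign-flip permutation test and an adjusted p of 0.422 over 2 readouts. A TCR clonotype was recorded more often by 4.40 ± 4.34 points, higher in 7 of 9 pools, with p = 0.0156 by the same exact permutation test and an adjusted p of 0.0313. The smallest p that 9 pools allow is 0.00391. Among cells of 4000 to 8000 UMIs the clonotype difference was 0.310 points with an exact permutation p of 0.914, so it did not hold at matched depth.

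Cd74 had the highest level of the 8 genes in CD4 cells. It stood at 81.4, 94.3 and 115 CPM in the saline pools, 73.7, 128 and 91.9 at 5 mg/kg and 102, 117 and 106 at 50 mg/kg. These groups overlapped in CPM, and on the TMM scale the 50 mg/kg pools lay above saline at 1.497 times its mean. In CD8 cells the pools stood at 68.8, 59.4 and 79.2, then 46.4, 83.0 and 56.9, then 29.7, 44.7 and 18.7. The 50 mg/kg CD8 pools lay below saline in CPM, at 0.449 of its mean, and overlapped it on the TMM scale, at 0.647. Cd74 was lower in CD8 than in CD4 cells in all 9 pools, with median ratios of 0.687, 0.631 and 0.292.

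H2-Aa and H2-Ab1 were lower at 50 mg/kg in both lineages and on both scales. H2-Aa stood at 16.3, 14.1 and 17.6 CPM in CD4 saline pools, 13.7, 21.4 and 8.62 at 5 mg/kg and 1.99, 4.74 and 3.42 at 50 mg/kg. In CD8 cells it stood at 19.1, 15.3 and 21.4, then 7.97, 23.5 and 13.4, then 1.32, 4.62 and 1.83. At 5 mg/kg the pools spanned the saline pools, and at 50 mg/kg no pool reached them. The 50 mg/kg means were 0.212 of saline in CD4 cells and 0.139 in CD8 cells, and 0.284 and 0.201 on the TMM scale.

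H2-Ab1, the partner chain, was at 15.8 ± 0.452, 12.3 ± 4.50 and 4.31 ± 2.68 CPM (SD, n = 3) in CD4 cells and 16.9 ± 4.35, 12.5 ± 3.81 and 2.83 ± 2.67 in CD8 cells after saline, 5 and 50 mg/kg. The second pool was the highest at 50 mg/kg in both lineages, at 7.40 in CD4 and 5.88 in CD8 cells. An H2-Aa UMI was found in 4.26% of CD4 and 5.71% of CD8 saline cells, and in 2.81% and 2.86% after thinning to 2000 UMIs. In these bulk sums, fewer class II-positive cells and less class II RNA per cell cannot be told apart, so the clusters are given next.

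After saline and at 5 mg/kg H2-Aa and H2-Ab1 were densest in 1 cluster of each lineage. CD4 cluster 8 and CD8 cluster 5, both led by C1qa, C1qb and C1qc, complement genes known from macrophages, held 52.7% of the CD4 and 30.2% of the CD8 H2-Aa and H2-Ab1 UMIs after saline, in 4.39% and 4.10% of the cells. In CD4 cluster 8 the sum of H2-Aa and H2-Ab1 was 463 ± 106, 411 ± 136 and 56.6 ± 21.1 CPM after saline, 5 and 50 mg/kg. In CD8 cluster 5 it was 342 ± 82.2, 315 ± 45.8 and 42.2 ± 11.6. The 50 mg/kg level was thus 0.122 and 0.123 of the saline level in the respective clusters, and Cd74 there was 0.202 and 0.199 of it. H2-Eb1, the beta chain of I-E, was at 0.173 and 0.104. At 50 mg/kg the Foxp3-led CD4 cluster 11 was at 76.3 ± 78.2 CPM of the summed genes in 59 cells, with pools from 0 to 156 that overlapped those of CD4 cluster 8.

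The summed C1q genes and Fcer1g had no lower means in these clusters at 50 mg/kg than after saline. C1q genes led both clusters, and Fcer1g was among the leading genes of CD4 cluster 8. Their levels there depend on how the cells were grouped, so they are a description and no reference for the class II genes. The 3 C1q genes together stood at 1530 ± 221, 1517 ± 139 and 1667 ± 404 CPM in CD4 cluster 8 and at 1147 ± 215, 1193 ± 127 and 1445 ± 163 in CD8 cluster 5. C1qa alone had a mean of 561 CPM after saline (pools from 452 to 624) and 481 at 50 mg/kg (375 to 565) in CD4 cluster 8, and of 419 (377 to 444) and 379 (296 to 439) in CD8 cluster 5, so its means were lower and its pools overlapped. Fcer1g, a signalling adaptor of Fc receptors, was at 1.47 and 1.46 times its saline level at 50 mg/kg. The clusters held 178, 153 and 141 CD4 cells and 190, 149 and 193 CD8 cells. Outside these clusters H2-Aa and H2-Ab1 at 50 mg/kg were 0.367 and 0.136 of saline in CD4 and CD8 cells, with C1q genes at 0.888 and 0.675. Fcer1g was lower there too, at 0.451 and 0.310 of saline.

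**Figure D5:**
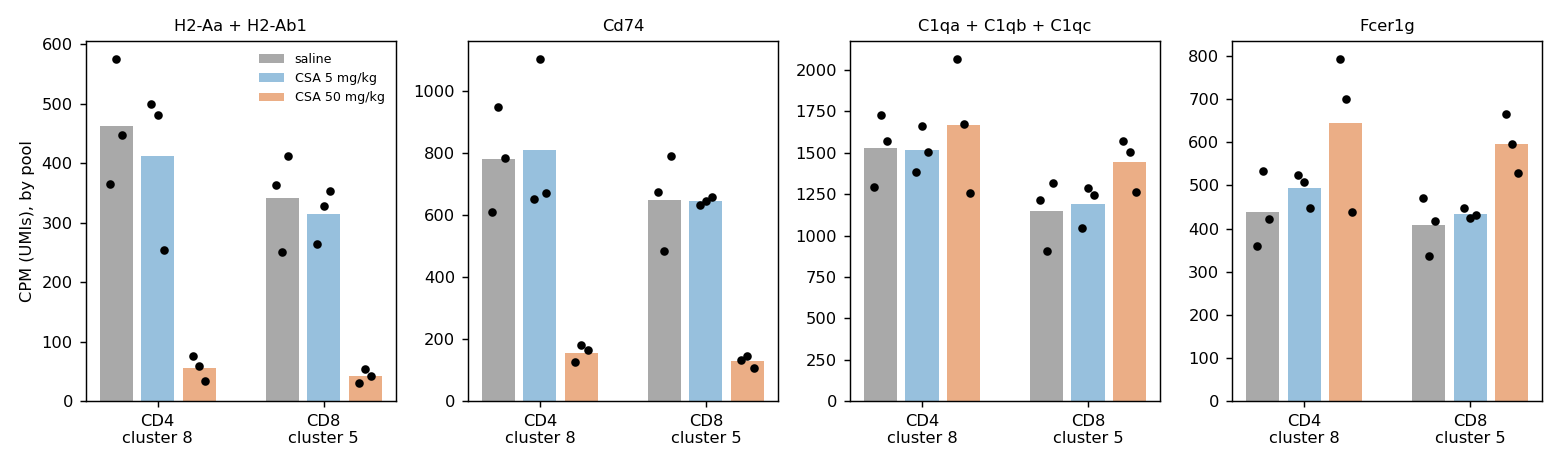
CPM of the summed H2-Aa and H2-Ab1, of Cd74, of the summed C1q genes and of Fcer1g in CD4 cluster 8 and CD8 cluster 5, with bars for group means from 0 and points for pools. At 50 mg/kg the mean of summed H2-Aa and H2-Ab1 is 56.6 and 42.2, beside 463 and 342 after saline. The lowest 50 mg/kg pool holds 1259 CPM of the C1q genes, which led these clusters.

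Cells with 3 or more UMIs of H2-Aa and H2-Ab1 numbered 229, and 85.2% of them also held a C1q UMI against 9.38% of cells with no UMI of the 2 class II genes. A TCR clonotype was recorded for 79.9% of the 229 and 81.4% of the others. The next strongest hashtag reached 0.5 of the strongest in 14.4% and 4.77%. Marker levels of myeloid and dendritic cells (15 genes) ranged from 343 to 481 CPM in CD4 pools and 446 to 594 in CD8 pools. Of these markers Flt3, a dendritic cell growth factor receptor, was at 0 in all 6 groups of lineage and treatment and Clec9a in 4 of them. Whether class II RNA came from T cells, from macrophages caught in the same droplets or from free RNA was not tested.

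Cd74 was also present outside the C1q clusters, and there it moved apart from H2-Aa and H2-Ab1. In the other CD4 clusters together Cd74 was at 71.8 ± 11.2, 65.9 ± 8.01 and 106 ± 6.09 CPM with increasing dose, and its 50 mg/kg level was 1.47 times the saline level where that of H2-Aa and H2-Ab1 was 0.367 of it. CD4 cluster 1, led by Ifitm1 and Ifitm2, stood at 33.0 ± 8.43, 37.7 ± 4.11 and 118 ± 22.5, and cluster 2, led by Sostdc1 and Id3, stood at 48.1 ± 19.7, 43.3 ± 5.00 and 172 ± 39.7. The Foxp3-led cluster 11 was high at 50 mg/kg, with 654 ± 397, in 59 cells. In the other CD8 clusters Cd74 was at 50.3 ± 3.25, 37.6 ± 10.0 and 26.1 ± 11.9. The opposite directions in CD4 and CD8 cells are values side by side, and their difference was not tested.

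The wider lists of 46 other B cell, plasma cell and class II genes, of which 45 were in the table, were tested with edgeR over all genes in the pool sums. These lists were chosen with earlier results of the same data known, so their shares and medians are a description. In CD8 cells at 50 mg/kg, 12 of 20 tested list genes were higher and 2 lower, beside 37.1% and 36.9% of all genes, with a list median of 0.57 (log2) against 0.00097 for all tested genes. By list, 7 of 11 B cell genes, 3 of 4 plasma cell genes and 2 of 5 class II genes were higher. In CD4 cells at 50 mg/kg, 7 of 18 were higher and 5 lower, beside 34.7% and 35.8% of all genes, with a median of -0.28. All 5 lower genes were class II genes, and by DESeq2 H2-DMa and H2-Ob passed and the other 3 did not. The higher genes include Iglc3 in CD8 cells and Iglc1 in CD4 cells, which had few or no UMIs after saline. Such genes can pass the filter on low counts only through groups where they are high, so their calls carry little weight. Without the 9 immunoglobulin V cells Iglc1 was not tested in CD4 cells. At 5 mg/kg 3 of 18 were higher in CD4 cells and 6 of 20 in CD8 cells, beside 26.1% and 29.9% of all genes, and none was lower, beside 25.6% and 30.3%. Under library-size scaling the 50 mg/kg counts were 5 higher and 11 lower in CD4 cells and 6 higher and 3 lower in CD8 cells, and the 5 mg/kg counts were 1 higher and 2 lower in each lineage.

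Among the B cell genes, Ighm was the most abundant, with 26759 UMIs, and was higher in both lineages at 50 mg/kg, by 1.00 ± 0.05 (log2, SE) in CD4 cells (adjusted p = 5.24e-13, edgeR) and 1.77 ± 0.07 in CD8 cells (adjusted p = 2.22e-13, edgeR). Both calls held under library-size scaling, at 0.56 and 1.24. Tnfrsf13b (TACI, a receptor for B cell survival factors) was higher in CD8 cells, by 1.16 ± 0.14 (adjusted p = 7.76e-07, edgeR), and had 0.17 ± 0.11 in CD4 cells (adjusted p = 0.164, edgeR). Under library-size scaling Tnfrsf13b stood at 0.63 in CD8 cells and passed as lower in CD4 cells, at -0.27 (adjusted p = 0.0368, edgeR). Cd24a, a surface glycoprotein of immature lymphocytes and red cells, was higher by 2.20 ± 0.39 and 2.90 ± 0.26 in CD4 and CD8 cells, in the same pools in which erythroid genes were higher, and their part was not tested. Cd72, a B cell inhibitory receptor, was lower in CD8 cells by -0.36 ± 0.14 with edgeR and did not pass by DESeq2 (adjusted p = 0.0962), and Tnfrsf13c (the BAFF receptor) was not called in either lineage. Igkc passed in CD4 cells at 50 mg/kg at 0.78 ± 0.33 (adjusted p = 0.0378, edgeR), and did not pass by DESeq2 (adjusted p = 0.257). Without the 9 immunoglobulin V cells it stood at 0.14 with an adjusted p of 0.533 by edgeR.

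Among the plasma cell genes, Eaf2 was higher at 50 mg/kg in CD4 and CD8 cells, by 2.55 ± 0.41 and 3.65 ± 0.32 (adjusted p = 1.21e-05 and 8.24e-09, edgeR), and without the 9 cells it was 2.53 and 3.72. In CD8 cells at 50 mg/kg, 116 Eaf2 UMIs lay in the 149 Jchain-high cells and 106 in the 3278 Jchain-negative cells. Eaf2 was not tested without the Jchain-high cells. With 370 UMIs in all cells, it may have passed the filter on low counts only through the 50 mg/kg groups. Xbp1, the transcription factor of the secretory program, was higher by 0.42 ± 0.08 and 0.47 ± 0.07, and Txndc5, a disulphide isomerase of the endoplasmic reticulum, by 0.70 ± 0.06 and 0.44 ± 0.05. Under library-size scaling Xbp1 stood at -0.02 and -0.06 in CD4 and CD8 cells, and Txndc5 at 0.26 and -0.09. Derl3 was not called in CD8 cells, at 0.75 ± 0.37 (adjusted p = 0.0745, edgeR), and Mzb1 and Igha, with 200 and 77 UMIs in all cells, did not pass the filter on low counts. Iglc3, named after its value was seen, was higher in CD8 cells by 6.52 ± 0.62 (adjusted p = 3.32e-08, edgeR). In CD8 cluster 2 it had 1 UMI after saline and 193 at 50 mg/kg, so it could pass the filter through the latter group alone.

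Among the class II genes, H2-Eb1 was lower at 50 mg/kg in CD4 cells by -0.87 ± 0.31 (adjusted p = 0.0162, edgeR) and in CD8 cells by -2.28 ± 0.36 (adjusted p = 1.45e-05, edgeR). By DESeq2 the CD4 value did not pass (adjusted p = 0.115) and the CD8 value did (adjusted p = 3.02e-04). H2-Ob, a chain of the class II modulator H2-O, was lower in CD4 cells by -2.83 ± 0.42 and was not called in CD8 cells, at -0.35 ± 0.47. H2-DMa, a chain of the peptide exchange factor H2-M, and H2-Oa stood at -0.38 ± 0.12 and -0.68 ± 0.29 in CD4 cells and at 0.34 ± 0.11 and 0.43 ± 0.17 in CD8 cells. Each of these 4 values passed with edgeR on the TMM scale, but by DESeq2 those of H2-Oa did not (adjusted p = 0.147 in CD4 and 0.0892 in CD8 cells), and under library-size scaling the CD8 values were -0.19 and -0.10 and did not pass, and the difference between lineages was not tested. H2-DMb1 was lower in CD4 cells by -1.13 ± 0.46 (adjusted p = 0.0331, edgeR) but did not pass by DESeq2 (adjusted p = 0.108), and H2-DMb2, with 73 UMIs in all cells, was not tested.

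Over the 18 sums of pool and lineage, the genes whose log2 level was most like Jchain among 7790 genes were Psmd8 (Pearson r = 0.90), Mrps23 (0.87), Pycard (0.86), Sdhd (0.86) and Gm45552 (0.85). Psmd8 ranged from 224 CPM in CD4 cells after saline to 356 in CD8 cells at 50 mg/kg. The genes most like the sum of Cd79a, Cd79b, Ms4a1 and Cd22 were Rras2 (0.89), Palm (0.88), Cd160 (0.88), Prr5 (0.87) and Cd27 (0.86). Cd160 ranged from 13.8 in CD4 cells at 50 mg/kg to 169.5 in CD8 cells at 5 mg/kg. The 18 sums share 3 captures and rise together in depth with dose, so these values describe a pattern only.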

How the data were processed

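The authors made UMI counts per gene and cell from 10x Chromium 5′ libraries. The submitters' processing notes name Cell Ranger, Seurat 3.0.0 and mm10. The deposited counts were used as whole-number counts, and the deposited cell table gave pool, treatment, cluster, TEa mark, hashtag and antibody counts and TCR clonotype; the fraction of mitochondrial UMIs was computed by the authors and was not used in a test. The cell table holds no cell that the authors marked as a doublet, and no doublet caller was run.

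The 8 members and the lists were chosen with earlier results of these data known. Counts were summed per pool and lineage without TEa cells. All 9 pools of a lineage were fitted with edgeR 4.0.16 (quasi-likelihood, TMM, filterByExpr, Benjamini-Hochberg over all genes, threshold 0.05) in R 4.3.3; 10568 genes were tested in CD4 and 10841 in CD8 cells. The step was tested on simulated data with known changes. Expected positive cells were computed from a Poisson model in each cell's depth, and thinning to 2000 UMIs was computed exactly, leaving out 8 to 452 shallower cells per group. Other genes named were the 6 of each list with the most UMIs and the 5 most correlated with a profile (log2 of CPM + 1, at least 10 CPM); any other is said to be named after its value was seen. Promoters and loci came from RefSeq tables of GRCm38.p6. Limits for a count of 0 use 3 counts and cover counting error only. Alternatives were library-size scaling, no filter, DESeq2 1.42.0, 6 pools only, the hashtag number as a block, TEa cells included, cells of 4000 to 8000 UMIs, and each pool left out; leaving out the immunoglobulin V cells was added after seeing the data.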

Additional observations from a re-analysis of the deposited data

How the results depend on the processing

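Of 28 counts of listed genes called under other settings, 24 lay within 1.5 times the reported count. With no filter on low counts, 7 genes were called in CD4 cells at 5 mg/kg and 25 in CD8 cells at 50 mg/kg, and with library-size scaling 3 were called in CD8 cells at 5 mg/kg and 9 at 50 mg/kg. Hashtag numbers did not pair the pools (correlations of same-numbered pools from -0.0785 to 0.0317 in CD4 and from -0.0596 to 0.0145 in CD8 cells), and with the number as a block 3, 12, 6 and 14 genes were called, the same counts as without it. Leaving out 1 pool gave 3 to 6 calls (6 without the third 5 mg/kg pool) and 7 to 13 (7 without the third saline pool) in CD4 cells at 5 and 50 mg/kg, and 2 to 6 (2 without the second 5 mg/kg pool) and 13 to 16 in CD8 cells.

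The log2 ratio of Jchain to saline was 5.30 in CD4 cells at 50 mg/kg, and became 1.86 without cells of 5 or more UMIs and 2.05 without the immunoglobulin V cells. In CD8 cells at 5 mg/kg it was 2.97 and became -1.37 and -2.16, and it ranged from -2.64 without the second 5 mg/kg pool to 3.88 without the first saline pool. In CD8 cells at 50 mg/kg it was 6.65, became 3.15 without cells of 5 or more UMIs and 8.21 among cells of 4000 to 8000 UMIs, and lay between 6.25 and 7.56 on leaving out single pools. Among cells of 4000 to 8000 UMIs no Jchain ratio could be formed in CD4 cells, where saline had 0 UMIs. For summed Cd79a, Cd79b, Ms4a1 and Cd22 the TMM scale gave -1.19 (CD4 at 50 mg/kg), 0.45 (CD8 at 5 mg/kg) and 0.40 (CD8 at 50 mg/kg), where CPM gave -1.61, 0.03 and -0.14; the last was -0.20 without cells of 5 or more UMIs and -0.18 among cells of 4000 to 8000 UMIs. For summed Cd74, H2-Aa and H2-Ab1 in CD4 cells at 50 mg/kg, CPM gave -0.15, TMM 0.27 and cells of 4000 to 8000 UMIs 0.28.

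The observed-to-expected ratio of Jchain was 1.00 in CD4 cells at 5 mg/kg both among cells of 4000 to 8000 UMIs and without the immunoglobulin V cells, 0.757 in CD4 cells at 50 mg/kg and 0.751 in CD8 cells at 5 mg/kg without those cells, and 0.752 in saline CD8 cells of 4000 to 8000 UMIs. In CD8 cells at 50 mg/kg it was 0.128 with expectation set within clusters and 0.0757 among cells of 4000 to 8000 UMIs. For the summed B cell genes the latter cells gave 0.928 in CD4 cells at 5 mg/kg and 0.871 in saline CD8 cells. The hashtag difference was 2.79 points with cells of at least 1 UMI (exact permutation p = 0.0313). The clonotype difference was 14.7 points with at least 3 UMIs (5 pools, exact permutation p = 0.0625), 0.310 among cells of 4000 to 8000 UMIs, 5.08 in CD4 cells only and 2.03 in CD8 cells only. The cause of these shifts was not tested. Ms4a1 and Cd79a outside the immunoglobulin V cells are limited by depth.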
